A study of Mus musculus with 64 samples.

Results

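The 39 interferon-stimulated genes described here are a list of mouse genes chosen by symbol, and all 39 were present among the 20637 genes of the deposited table. They were followed across 64 RNA-seq libraries from 16 groups of 4, made from 4 cell populations of CD1 mouse hearts collected 3 days after myocardial infarction (MI) or a sham operation. The groups were P56 MI, P56 sham, P1 MI and P1 sham in each of endothelial cells, leukocytes, fibroblasts and cardiomyocytes, where P56 and P1 are the postnatal day of surgery and sham animals had the procedure without infarction. The design asks how each population differs between adult and newborn hearts and how it responds to infarction at each age.

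Adults were male, had the coronary artery permanently ligated in the MI group, and their hearts were digested by perfusion. Newborn ventricles were pooled 6 per vessel, digested under agitation, and the labels give no sex for them, so age, pooling and dissociation cannot be told apart. Leukocytes were sorted as CD45+, endothelial cells as CD31+ and CD45-, and fibroblasts as CD90+ without CD45 or CD31, whereas cardiomyocytes were the dense layer of a Percoll gradient and were not sorted. The labels do not say that replicates came from separate animals or pools, so every p-value rests on library-to-library spread, which may be technical only.

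Interferons are cytokines released when a cell senses viral or misplaced nucleic acid. Type I interferons act through a receptor, the kinases Jak1 and Tyk2, and a complex with Stat2 and Irf9 that binds the interferon-stimulated response element (ISRE), while interferon gamma has its own receptor and acts on the gamma-activated site (GAS). In the heart, macrophages that take up debris of dying cells after infarction are a known source of type I interferon. The list holds 4 sensors of nucleic acids, 13 antiviral effectors, 7 genes of the ISG15 system, the PARP family and ubiquitin ligases, 3 transcription factors, 8 interferon-inducible GTPases and 4 other induced genes.

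RefSeq promoters (GRCm38.p6, 250 bases before to 50 bases after the start) were at hand for 29 of the 39 genes. The letters GAAANNGAAA, or TTTCNNTTTC on the other strand, were taken as an ISRE match, and TTCNNNGAA, which reads the same on both strands, as a GAS match; overlapping matches were counted separately. An ISRE match stood in 18 of the 29 promoters (62.1%), against 1131 of 32851 RefSeq promoters (3.44%), and a GAS match stood in 8 (27.6%), against 2726 (8.30%). By role, all 7 GTPase promoters at hand held an ISRE match and 4 of them a GAS match, against 6 and 3 of 10 antiviral effector promoters. A match describes letters in this window and not a bound site. The following 4 promoters belong to members called in the most comparisons, or tied for it, among those of their role with a promoter at hand. These are the sensor Ddx58, the ubiquitin ligase Trim30a, the transcription factor Stat2 and the GTPase Gbp3. The promoters are read on the gene's strand, with ISRE letters in capitals. They lie at chr4:40239776-40240075 (minus strand), chr7:104465144-104465443 (minus), chr10:128270248-128270547 (plus) and chr3:142559794-142560093 (plus).
Ddx58: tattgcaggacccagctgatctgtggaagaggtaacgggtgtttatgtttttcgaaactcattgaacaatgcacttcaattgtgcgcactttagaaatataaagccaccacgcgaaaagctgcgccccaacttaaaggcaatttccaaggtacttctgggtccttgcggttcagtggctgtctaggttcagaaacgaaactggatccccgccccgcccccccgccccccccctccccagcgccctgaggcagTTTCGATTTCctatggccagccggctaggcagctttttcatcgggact
Trim30a: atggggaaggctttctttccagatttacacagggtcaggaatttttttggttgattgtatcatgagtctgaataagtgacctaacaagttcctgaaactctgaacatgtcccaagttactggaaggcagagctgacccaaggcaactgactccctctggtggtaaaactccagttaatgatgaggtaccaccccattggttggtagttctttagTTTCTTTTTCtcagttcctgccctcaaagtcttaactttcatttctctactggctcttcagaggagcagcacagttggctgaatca
Stat2: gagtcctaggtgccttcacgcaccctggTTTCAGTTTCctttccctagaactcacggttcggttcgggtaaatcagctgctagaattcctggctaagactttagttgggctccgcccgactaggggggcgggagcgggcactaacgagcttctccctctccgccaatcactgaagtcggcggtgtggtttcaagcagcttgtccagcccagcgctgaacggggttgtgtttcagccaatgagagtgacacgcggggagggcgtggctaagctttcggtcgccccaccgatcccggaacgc
Gbp3: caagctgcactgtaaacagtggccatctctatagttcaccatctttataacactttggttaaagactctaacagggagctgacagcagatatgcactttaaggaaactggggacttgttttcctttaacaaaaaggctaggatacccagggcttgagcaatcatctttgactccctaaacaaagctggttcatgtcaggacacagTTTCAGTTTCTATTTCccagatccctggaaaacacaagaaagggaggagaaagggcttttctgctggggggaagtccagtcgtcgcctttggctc
Relative to the start, the match began at position 2 in Ddx58, -36 in Trim30a and -222 in Stat2, and Gbp3 held a pair of overlapping matches from -45 and -39. The windows of the antiviral effector Cmpk2 and of Ifi44 held neither set of letters.

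The ISRE matches of the GTPases are shown because all 7 promoters at hand for that role held one. These 10-base matches, beginning between positions -77 and -24, were as follows, written on the gene's strand.
Gbp2: TTTCACTTTC
Gbp7: TTTCAGTTTC
Igtp: GAAACTGAAA
Irgm1: GAAATAGAAA
Irgm1: GAAACCGAAA
Tgtp1: GAAACTGAAA
Tgtp2: GAAACCGAAA
A GAS match lay 11 bases upstream of the ISRE match in Igtp, Tgtp1 and Tgtp2, and Gbp7 held a pair of GAS matches.

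Each library held between 9.59 and 27.5 M reads counted in genes (median 20.6 M), of which 2256 to 70455 fell in the 39 genes, and 3 reads corresponded to between 0.102 and 0.409 of the authors' normalised counts, called CPM here as in their files. A share of over 5% of counts from 18S ribosomal RNA was found in 7 libraries (up to 26.1%). The labelled populations carried their own markers: the summed CPM of 8 endothelial markers (such as Cdh5) was 7911 to 10346 in endothelial libraries and 130.3 to 4085 elsewhere, that of 8 leukocyte markers (such as Ptprc) was 1364 to 4946 in leukocyte libraries and 1.87 to 330.5 elsewhere, and that of 8 fibroblast markers (such as Pdgfra) was 25433 to 62769.9 in fibroblast libraries and 260.4 to 5756 elsewhere. Cardiomyocyte markers (such as Myh6) summed to 24306 to 143464 CPM in cardiomyocyte libraries but also to 20485 to 53811 CPM in P56 sham leukocytes. In bulk samples of this kind, fewer cells of a type and less RNA per cell cannot be told apart.

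Some same-numbered libraries were high in the 39 genes in several populations. P56 MI replicate 3, singled out after its values were seen, held the highest of the 4 values for 20 of 37 tested members in endothelial cells (22.2% of all genes tested), 37 of 39 in leukocytes (26.2%), 30 of 35 in fibroblasts (24.7%) and 30 of 37 in cardiomyocytes (38.5%). P56 sham replicate 4, chosen in the same way, held the highest value for 34 of 37 members in endothelial cells (32.9%), 24 of 39 in leukocytes (17.2%), 25 of 35 in fibroblasts (18.7%) and 23 of 37 in cardiomyocytes (29.4%). The median member of P56 MI replicate 3 lay 0.33, 0.77, 0.76 and 0.71 log2 units above the mean of the other 3 libraries in endothelial cells, leukocytes, fibroblasts and cardiomyocytes, where the median over all genes lay between 0.01 and 0.03. In P56 MI endothelial cells replicate 2 was close to it, with the highest value for 15 members and a median member 0.31 above the other 3 libraries. In P56 MI leukocytes Rsad2, which encodes the antiviral enzyme viperin, had 25.2, 18.8, 102 and 31.3 CPM and Ifit2, which encodes an RNA-binding antiviral protein, had 23.8, 19.6, 99.2 and 21.9 CPM. Oas2, which makes the second messenger that activates RNase L, did not share this pattern there, with 41.7, 55.6, 39.4 and 35.5 CPM. The labels do not say whether equal numbers mark the same heart, day or lane. In these P56 MI libraries the summed leukocyte markers were 91.7, 53.6, 139 and 61.0 CPM in endothelial cells, 9.55, 18.1, 23.4 and 10.1 in fibroblasts and 174, 82.7, 296 and 159.6 in cardiomyocytes, so replicate 3 was the highest in all 3; their part in the pattern was not tested. In leukocytes themselves this sum was 4383, 3811, 3851 and 4946 CPM, with replicate 3 inside the range of the others. Counts without these 8 libraries are therefore given beside the P56 results. Some libraries were low instead. Relative to the mean of the other 3, the median member lay at -0.87 log2 units in P56 sham leukocyte replicate 1. The same value was -0.78 in P56 sham cardiomyocyte replicate 1 and -0.48 in P1 sham endothelial replicate 3. Over all genes these medians were 0.01, -0.08 and -0.01. That leukocyte library also held the most cardiomyocyte marker signal of its group (53811 CPM).

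**Figure D1:**
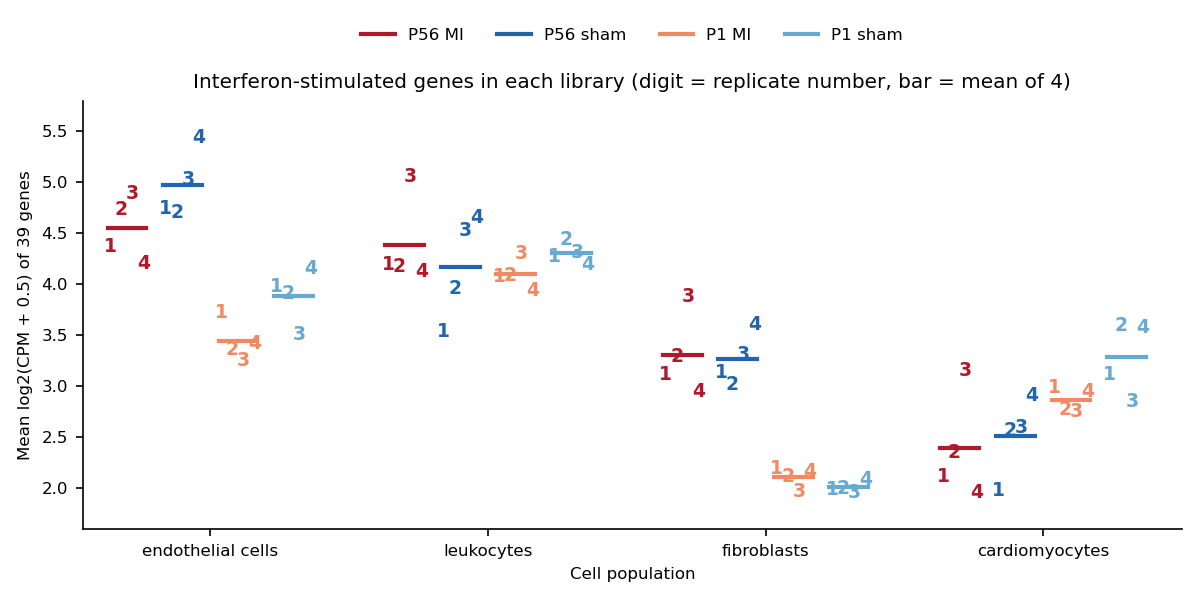
Mean log2(CPM + 0.5) of the 39 genes (y axis) in each library, by cell population (x axis) and group (colour); digits are replicate numbers and bars are means of 4. P56 MI replicate 3 sits at 5.06 in leukocytes, above 4.13 to 4.19 in the other 3, and the P56 groups lie above the P1 groups in endothelial cells and fibroblasts.

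Over the 16 groups the genes were highest in adult endothelial cells. The mean log2(CPM + 0.5) of the 39 genes was 4.55 ± 0.32 in P56 MI, 4.98 ± 0.34 in P56 sham, 3.44 ± 0.20 in P1 MI and 3.89 ± 0.27 in P1 sham endothelial cells (SD, n = 4 each, as for the other populations). In leukocytes the same means were 4.39 ± 0.45, 4.17 ± 0.52, 4.10 ± 0.15 and 4.30 ± 0.10 in P56 MI, P56 sham, P1 MI and P1 sham libraries, and the ranges of the 4 groups overlapped. Fibroblasts had 3.31 ± 0.41 in P56 MI and 3.27 ± 0.25 in P56 sham, against 2.11 ± 0.10 in P1 MI and 2.01 ± 0.05 in P1 sham, the lowest of all groups. Cardiomyocytes ran the other way by age, with 2.40 ± 0.53 in P56 MI and 2.51 ± 0.39 in P56 sham, against 2.87 ± 0.12 in P1 MI and 3.29 ± 0.37 in P1 sham.

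Of the 39 genes, 26 had their highest group mean in P56 sham endothelial cells and 9 in P56 MI leukocytes, while 19 had their lowest in P1 sham fibroblasts. The matching shares over all genes were not computed, so these counts do not set the members apart from other genes. Per kilobase of the gene length in the authors' table, Iigp1 averaged 86.2 ± 21.5 CPM per kilobase in P56 sham endothelial cells (SD, n = 4). No order is given at the top of this scale, because the length listed for Gbp3 was 649 bases, whereas its longest annotated transcript held 2633 windows of 50 bases. Lower on the scale, Oas3 averaged 0.0249 ± 0.0107 and Mx1 0.193 ± 0.167 CPM per kilobase in the same libraries, and Oas3 was listed at 0 in all 4 P1 sham fibroblast libraries.

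A member counted as enriched when a population's sham libraries exceeded those of every other population 2-fold or more, each at an adjusted p under 0.05 (limma). In P56 sham endothelial cells 17 members met this, against 5.95% of the 17618 genes tested. They included 7 of the 8 GTPases, and the lowest log2 difference from any other population was 3.52 for Ifi44, 2.73 for Tgtp1, 2.63 for Rsad2, 2.12 for Iigp1 and 1.00 for Irf7, the master regulator of type I interferon genes, which met the limit narrowly. The count was 16 without P56 sham replicate 4 of every population, and ran from 12 to 20 with any single library left out. In P56 sham leukocytes 4 members were enriched (6.26% of genes), with log2 differences of 3.52 for Mx1, 2.97 for Oas3, 1.84 for Zbp1 and 1.17 for Oas1a; 4 were also enriched without P56 sham replicate 4 of every population, and 3 or 4 with any single library left out. No member was enriched in P56 sham fibroblasts (7.67% of genes) or cardiomyocytes (17.0%), by limma, edgeR or DESeq2.

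In P1 sham hearts the order was another. No member met the rule in endothelial cells (2.90% of genes), fibroblasts (6.44%) or cardiomyocytes (7.07%) by limma, edgeR or DESeq2, and with any positive difference at adjusted p under 0.05 in place of 2-fold the limma counts were 2, 0 and 0. Removal of P1 sham endothelial replicate 3, or of P1 sham leukocyte replicate 2, gave 1 enriched member in P1 endothelial cells. In P1 sham leukocytes 7 were enriched (5.67% of genes), namely Mx1, Oas2, Oas3, Oas1a and Oasl1 among the effectors and the sensors Zbp1, which binds Z-form nucleic acid, and Dhx58, which encodes LGP2.

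**Figure D2:**
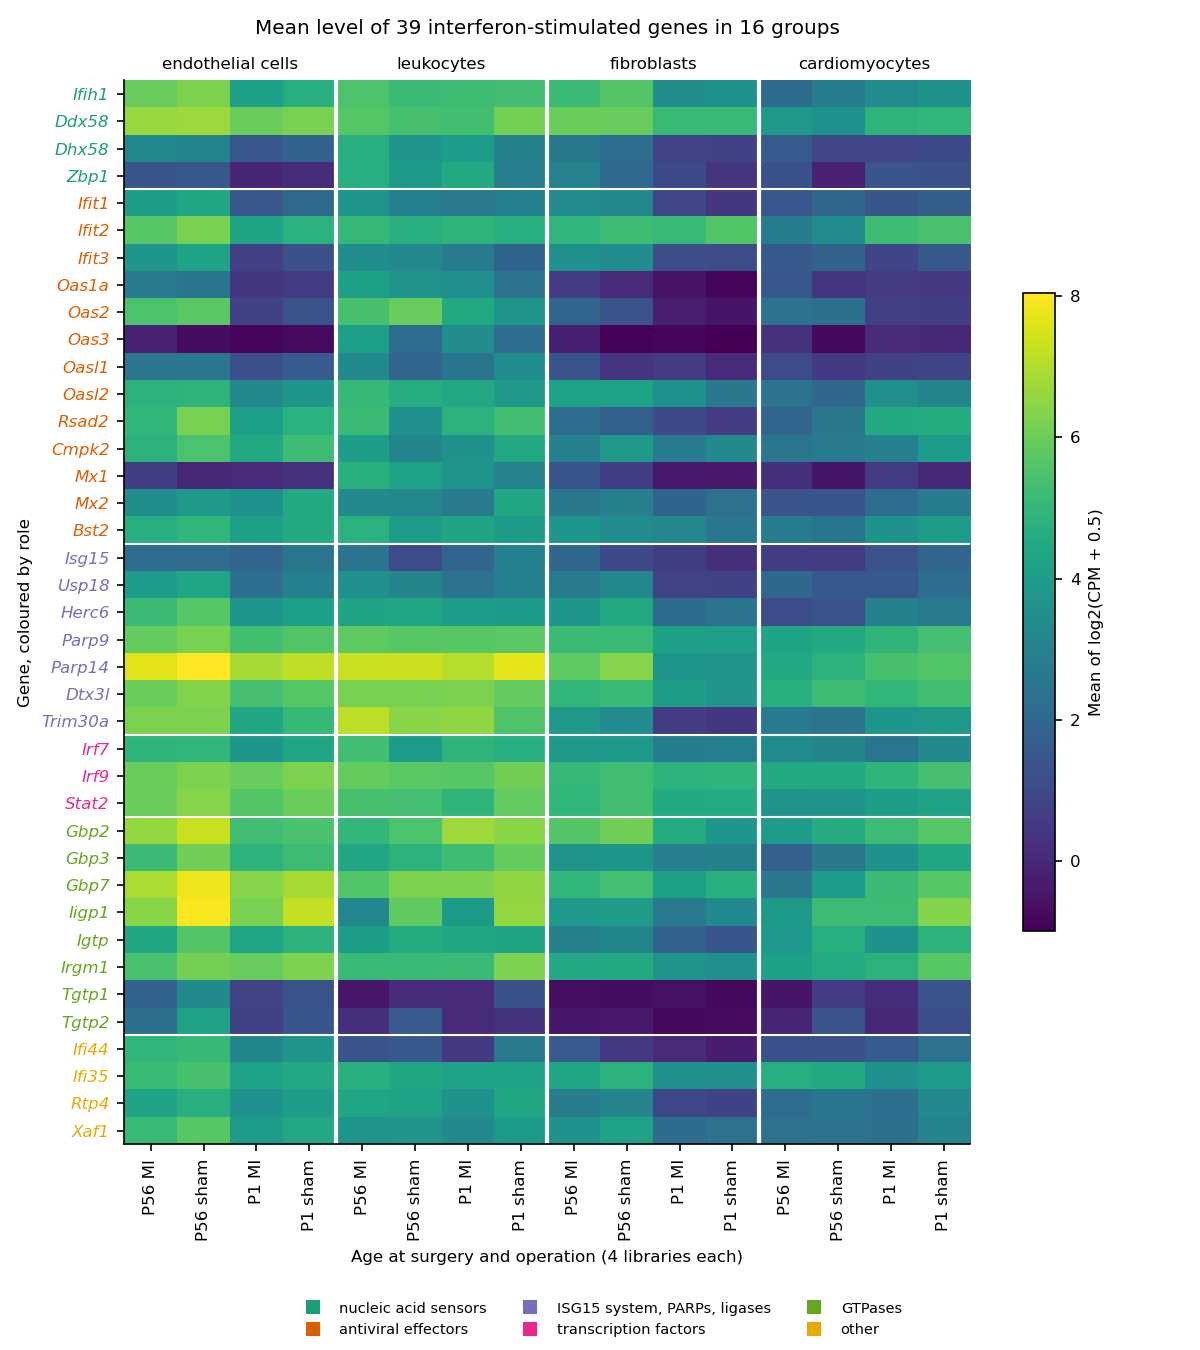
Mean log2(CPM + 0.5) over 4 libraries (colour) of each of the 39 genes (rows, coloured by role) in the 16 groups (columns, by population, then P56 MI, P56 sham, P1 MI and P1 sham). The brightest cells are Gbp7, Iigp1 and Parp14 in P56 sham endothelial cells, and the darkest include Oas3 outside leukocytes; rows are not scaled by gene length.

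Between adult and newborn sham hearts the genes moved in opposite directions by population. In fibroblasts 31 of 35 tested members were higher at P56 and 0 lower at adjusted p under 0.05 (limma; 34.8% and 32.2% of the 15729 genes tested), with a median log2 fold change of 1.18 against 0.03 over all genes. In endothelial cells 30 of 37 were higher and 1 lower (33.6% and 29.3% of 15706 genes; median 1.01 against 0.05). In leukocytes 10 of 39 were higher and 13 lower (32.5% and 34.5% of 16239 genes; median -0.09 against -0.01). In cardiomyocytes 2 of 37 were higher and 24 lower (33.3% and 37.0% of 15461 genes; median -0.82 against -0.09). With P56 sham replicate 4 and P56 MI replicate 3 left out, the counts higher and lower were 28 and 0 in fibroblasts, 26 and 1 in endothelial cells, 8 and 15 in leukocytes, and 2 and 25 in cardiomyocytes. Whichever single library was left out, 27 of 31 calls in fibroblasts, 27 of 31 in endothelial cells, 16 of 23 in leukocytes and 20 of 26 in cardiomyocytes were kept. In fibroblasts edgeR and DESeq2 called 0 lower too, and 0 members had an unadjusted p under 0.05 in that direction. These 4 comparisons share no libraries with each other, but they may not be independent. Same-numbered libraries of 2 populations in 1 condition deviated together (median correlation 0.22, over 0.1 in 69 of 96 pairs). The labels do not say whether they came from the same hearts.

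In fibroblasts every role class took part: all 7 genes of the ISG15, PARP and ubiquitin ligase class were higher (median log2 fold change 2.02), as were all 4 sensors (1.59), 9 of 11 tested effectors (1.03), all 3 transcription factors (0.72), 5 of 6 tested GTPases (0.88) and 3 of 4 other genes (1.54). Parp14, an ADP-ribosyltransferase, had 87.2, 67.7, 90.5 and 95.2 CPM in P56 sham fibroblasts, against 12.7, 12.9, 12.5 and 11.3 CPM in P1 sham fibroblasts (log2 fold change 2.73 ± 0.16, adjusted p = 3.72e-10). Ifih1, which encodes MDA5, the sensor of long double-stranded RNA, had 46.3, 45.6, 50.4 and 55.7 CPM at P56, against 12.5, 12.2, 12.0 and 11.4 CPM at P1 (log2 fold change 1.99 ± 0.14, adjusted p = 2.96e-09). Both genes were separated without overlap, and the newborn libraries were nearly level. Ifit1, which binds viral RNA lacking a methylated cap, had 7.43, 7.48, 8.46 and 13.4 CPM in P56 sham fibroblasts, against 0.782, 0.724, 1.18 and 0.817 CPM in P1 sham fibroblasts (log2 fold change 2.79 ± 0.26, adjusted p = 8.27e-08). Its adult value in replicate 4 was well above the other 3, and every adult value exceeded every newborn one.

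Gbp2, a guanylate-binding protein that coats intracellular pathogens, had 55.2, 60.3, 88.0 and 68.1 CPM in P56 sham fibroblasts, against 11.0, 8.87, 14.0 and 19.7 CPM in P1 sham fibroblasts (log2 fold change 2.33 ± 0.21, adjusted p = 6.43e-08). Ifi35 had 25.9, 25.5, 30.0 and 29.9 CPM at P56, against 10.5, 10.8, 11.4 and 12.5 CPM at P1 (log2 fold change 1.27 ± 0.09, adjusted p = 6.7e-09). Stat2, the partner of Irf9 in the ISRE-binding complex, moved least of these leading genes, with 33.0, 35.1, 42.8 and 46.1 CPM at P56, against 20.9, 27.2, 25.2 and 20.7 CPM at P1 (log2 fold change 0.72 ± 0.14, adjusted p = 0.000209). None of the 3 overlapped between the ages. Of the 39 members, 4 (Oas1a, Oas3, Tgtp1 and Tgtp2) did not pass the filter of 1 CPM in 4 libraries in fibroblasts and were not tested. Summed endothelial markers were 431 to 608 CPM in P56 sham fibroblasts and 304 to 352 CPM in P1 sham fibroblasts, with 6 of 8 higher, as were 7 of 8 cardiomyocyte markers and 5 of 7 tested monocyte and macrophage markers (16.9 to 41.2 CPM in P56 sham and 11.5 to 22.5 CPM in P1 sham); their part in the result was not tested.

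In endothelial cells the effectors had the largest median change with age among the classes: 8 of 11 tested effectors were higher and 1 lower (median log2 fold change 1.44), beside all 4 sensors (1.25), all 4 other genes (1.10), 6 of 8 GTPases (0.95), 6 of 7 genes of the ISG15, PARP and ligase class (0.88) and 2 of 3 transcription factors (0.41). Oas2 had 41.9, 30.8, 54.9 and 103 CPM in P56 sham endothelial cells, against 2.46, 2.14, 1.20 and 2.28 CPM in P1 sham endothelial cells (log2 fold change 4.41 ± 0.31, adjusted p = 3.47e-09). Tgtp2, an immunity-related GTPase that shares most of its sequence with Tgtp1, had 15.3, 11.0, 23.6 and 27.0 CPM at P56, against 2.61, 1.64, 1.08 and 4.25 CPM at P1 (log2 fold change 2.81 ± 0.40, adjusted p = 1.42e-05). The lowest adult value of each lay far above the highest newborn one. Ifih1 had 63.4, 87.7, 72.8 and 83.0 CPM at P56, against 28.1, 24.5, 21.6 and 26.7 CPM at P1 (log2 fold change 1.58 ± 0.12, adjusted p = 1.27e-08).

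Trim30a, a mouse ubiquitin ligase of the TRIM family, had 61.4, 80.7, 76.7 and 90.4 CPM in P56 sham endothelial cells, against 33.9, 33.8, 31.7 and 32.2 CPM in P1 sham endothelial cells (log2 fold change 1.21 ± 0.11, adjusted p = 7.39e-08). Ifi35 had 36.1, 38.4, 43.7 and 53.2 CPM at P56, against 24.2, 21.2, 20.7 and 20.4 CPM at P1 (log2 fold change 0.96 ± 0.11, adjusted p = 1.81e-06). These genes again separated the ages without overlap, whereas Irf7 did not: it had 25.9, 22.5, 33.7 and 50.3 CPM at P56, against 23.2, 19.5, 14.7 and 20.8 CPM at P1 (log2 fold change 0.70 ± 0.23, adjusted p = 0.0147), with adult replicate 2 below newborn replicate 1. The 1 member lower at P56 was Mx2 (log2 fold change -0.65 ± 0.21), of the dynamin-like antiviral GTPase family and listed by the authors as a polymorphic pseudogene. It had 13.2, 11.3, 14.1 and 18.9 CPM in P56 sham endothelial cells, against 20.4, 27.1, 17.5 and 26.6 CPM in P1 sham endothelial cells, and its groups overlapped. All 8 cardiomyocyte markers were also higher in the adult endothelial libraries (2823 to 6141 CPM in P56 sham and 229.7 to 797 CPM in P1 sham), as were 5 of 8 monocyte and macrophage markers, whose sums overlapped (36.9 to 66.5 CPM in P56 sham and 15.8 to 77.7 CPM in P1 sham). Their part in the result was not tested.

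Leukocytes went both ways, as did genes at large. Neither 10 of 39 members higher nor 13 lower exceeded the shares over all genes (32.5% and 34.5%). Effectors were higher for 5 and lower for 4 of 13, sensors for 2 and 1 of 4, and GTPases for 1 and 5 of 8, with a median log2 fold change of -0.85 in GTPases. Oas2 had 33.4, 45.9, 91.8 and 99.8 CPM in P56 sham leukocytes, against 15.1, 18.7, 9.12 and 9.09 CPM in P1 sham leukocytes (log2 fold change 2.26 ± 0.31, adjusted p = 7.91e-06). Isg15, the ubiquitin-like modifier, had 0.559, 1.53, 2.97 and 2.15 CPM at P56, against 5.60, 6.57, 8.13 and 10.1 CPM at P1 (log2 fold change -1.91 ± 0.31, adjusted p = 5.45e-05). The ages did not overlap for either gene, and they moved in opposite directions. Irgm1, a GTPase that regulates the others of its family, had 23.8, 26.6, 45.7 and 42.3 CPM in P56 sham leukocytes, against 86.1, 89.8, 74.9 and 66.2 CPM in P1 sham leukocytes (log2 fold change -1.23 ± 0.22, adjusted p = 0.000115).

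Ddx58, which encodes RIG-I, the sensor of RNA with a triphosphate end, had 30.7, 37.1, 46.5 and 58.7 CPM in P56 sham leukocytes, against 70.9, 75.3, 68.0 and 66.0 CPM in P1 sham leukocytes (log2 fold change -0.73 ± 0.20, adjusted p = 0.00389). Ifi44 had 1.79, 1.57, 2.35 and 4.83 CPM at P56, against 6.65, 7.45, 7.00 and 4.71 CPM at P1 (log2 fold change -1.24 ± 0.33, adjusted p = 0.00331), and Stat2 had 27.0, 33.9, 55.8 and 49.4 CPM at P56, against 62.0, 62.9, 53.9 and 54.5 CPM at P1 (log2 fold change -0.54 ± 0.19, adjusted p = 0.0213). Ddx58 and Irgm1 separated the ages, while Ifi44 and Stat2 overlapped through adult replicate 4. The adult and newborn leukocyte libraries also differed in their markers: cardiomyocyte markers summed to 20485 to 53811 CPM in P56 sham and 6196 to 8667 CPM in P1 sham, endothelial markers to 365 to 536 CPM in P56 sham and 3479 to 4085 CPM in P1 sham, all 8 neutrophil markers were lower at P56, and 7 of 8 monocyte and macrophage markers were higher. Their part in the result was not tested.

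In the cardiomyocyte fraction the adult libraries were lower in every class, for 6 of 7 genes of the ISG15, PARP and ligase class, 6 of 11 tested effectors, 5 of 8 GTPases, 3 of 4 sensors, 2 of 3 transcription factors and 2 of 4 other genes. Bst2, which encodes the virus-retaining membrane protein tetherin, had 4.22, 4.62, 6.44 and 5.89 CPM in P56 sham cardiomyocytes, against 12.9, 15.0, 12.2 and 22.6 CPM in P1 sham cardiomyocytes (log2 fold change -1.46 ± 0.22, adjusted p = 1.04e-05). Ddx58 had 7.82, 13.4, 11.4 and 17.1 CPM at P56, against 32.1, 30.8, 28.5 and 35.6 CPM at P1 (log2 fold change -1.36 ± 0.21, adjusted p = 1.08e-05). Irgm1 had 17.6, 23.4, 26.2 and 27.2 CPM at P56, against 46.2, 65.8, 36.3 and 63.6 CPM at P1 (log2 fold change -1.13 ± 0.19, adjusted p = 4.55e-05). In these 3 genes every adult value lay below every newborn one, and the same held for Isg15, with 0.372, 1.13, 1.55 and 1.19 CPM at P56, against 3.24, 2.79, 2.89 and 5.07 CPM at P1 (log2 fold change -1.39 ± 0.28, adjusted p = 0.000254).

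Rtp4 had 3.23, 5.47, 5.72 and 7.08 CPM in P56 sham cardiomyocytes, against 9.65, 6.85, 7.92 and 11.7 CPM in P1 sham cardiomyocytes (log2 fold change -0.72 ± 0.24, adjusted p = 0.0119). Irf9, the DNA-binding part of the ISRE-binding complex, had 14.4, 19.8, 36.8 and 22.4 CPM at P56, against 40.1, 42.9, 35.6 and 45.8 CPM at P1 (log2 fold change -0.88 ± 0.21, adjusted p = 0.00101). The ages overlapped for both genes. The 2 members higher at P56 were Oas2 (log2 fold change 1.65 ± 0.34, adjusted p = 0.000295) and Ifi35 (log2 fold change 0.49 ± 0.20, adjusted p = 0.0377). Summed endothelial markers were 979 to 1536 CPM in P56 sham cardiomyocytes and 2197 to 3501 CPM in P1 sham cardiomyocytes, and summed leukocyte markers were 14.4 to 62.3 and 88.1 to 204 CPM in the same groups, so markers of both cell types with the highest member levels were lower in the adult fraction; their part in the result was not tested. With the 7 libraries of over 5% 18S RNA left out, 16 members were called in this comparison (1 higher, 15 lower). Of these libraries, P1 sham cardiomyocyte replicate 2 (16.6% 18S) held the highest value of its group for 19 of 37 members. P56 sham cardiomyocyte replicate 1 (7.14%) held the lowest for 29.

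**Figure D3:**
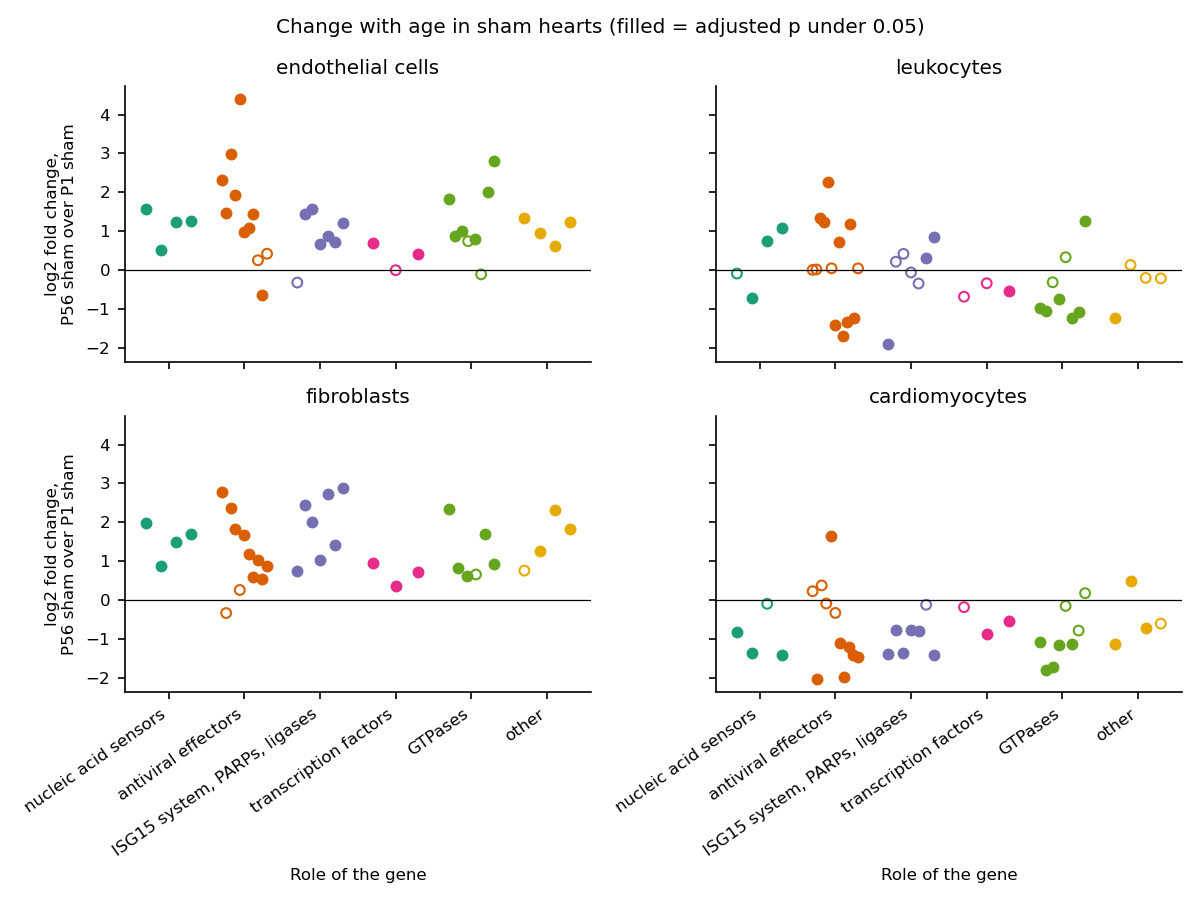
Log2 fold change of P56 sham over P1 sham (y axis) for each tested member, by role (x axis) in each population; filled points passed adjusted p under 0.05. The points lie mostly above 0 in endothelial cells and fibroblasts (medians 1.01 and 1.18), around 0 in leukocytes (-0.09) and mostly below 0 in cardiomyocytes (-0.82).

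After infarction at P56, set against the same P56 sham libraries as used for age, 7 of 8 GTPases were lower in endothelial cells and 4 of 8 in leukocytes. In endothelial cells 0 of 37 tested members were higher in MI and 11 lower (12.5% and 7.88% of genes by limma; median log2 fold change -0.36 against 0.02 over all genes). Of these 11, 7 were GTPases (7 of 8, median -1.10), 2 were effectors (Rsad2 and Cmpk2), 1 was Parp9 and 1 was Xaf1. No member was higher by edgeR or DESeq2 either, or at an unadjusted p under 0.05 by limma, and the counts lower by edgeR and DESeq2 were 13 and 16. The count depended on single libraries: it was 6 without P56 sham replicate 3, 5 without P56 sham replicate 4, 5 without P56 MI replicate 1 and 5 without P56 MI replicate 4, and 9 without P56 sham replicate 4 and P56 MI replicate 3 together. The 4 calls kept whichever library was left out were the GTPases Gbp7, Iigp1, Igtp and Tgtp2.

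Gbp7 had 95.1, 133, 158 and 101 CPM in P56 MI endothelial cells, against 179.5, 209, 261 and 289.5 CPM in P56 sham endothelial cells (log2 fold change -0.95 ± 0.20, adjusted p = 0.00354). Iigp1, which damages the vacuoles of intracellular parasites, had 69.0, 86.2, 160.3 and 57.6 CPM in MI, against 203, 198, 326 and 287 CPM in sham (log2 fold change -1.52 ± 0.33, adjusted p = 0.00393). Both GTPases separated the groups. Tgtp2 had 3.57, 4.75, 7.11 and 3.68 CPM in MI, against 15.3, 11.0, 23.6 and 27.0 CPM in sham (log2 fold change -1.87 ± 0.40, adjusted p = 0.00398), and Igtp had 18.7, 19.7, 28.7 and 15.8 CPM in MI, against 34.9, 44.1, 57.6 and 66.0 CPM in sham (log2 fold change -1.26 ± 0.32, adjusted p = 0.0103). Neither of these overlapped between MI and sham.

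The other classes overlapped in adult endothelium. Rsad2 had 22.4, 63.2, 45.1 and 15.0 CPM in P56 MI endothelial cells, against 56.7, 56.3, 78.3 and 114 CPM in P56 sham endothelial cells (log2 fold change -1.21 ± 0.33, adjusted p = 0.0163), with MI replicate 2 above sham replicates 1 and 2. Parp9, a partner of the ubiquitin ligase Dtx3l, had 54.6, 61.9, 71.5 and 54.0 CPM in MI, against 64.7, 71.6, 74.5 and 92.3 CPM in sham (log2 fold change -0.32 ± 0.11, adjusted p = 0.0437). Xaf1, an interferon-induced gene that promotes cell death, had 26.8, 41.7, 37.1 and 32.6 CPM in MI, against 43.5, 39.3, 56 and 70.4 CPM in sham (log2 fold change -0.57 ± 0.16, adjusted p = 0.0212). Ddx58 and Ifih1 did not pass the test, with log2 fold changes of -0.08 ± 0.10 and -0.30 ± 0.12. Summed leukocyte markers were 53.6 to 139 CPM in P56 MI and 15.6 to 24.7 CPM in P56 sham endothelial cells. Cardiomyocyte markers were lower for 6 of 8 (1018 to 2163 CPM in P56 MI and 2823 to 6141 CPM in P56 sham). Monocyte and macrophage markers were higher for 4 of 8 (112 to 285 CPM in P56 MI and 36.9 to 66.5 CPM in P56 sham). The part of these markers in the result was not tested.

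In adult leukocytes 11 of 39 members were higher after MI and 4 lower (30.7% and 28.8% of genes; median 0.18 against 0.02). Neither share exceeded that over all genes. By role, effectors were higher for 6 of 13 and lower for 0, whereas GTPases were higher for 0 and lower for 4 of 8. Iigp1 had 8.33, 9.35, 14.4 and 5.15 CPM in P56 MI leukocytes, against 68.7, 40.5, 65.3 and 56.9 CPM in P56 sham leukocytes (log2 fold change -2.63 ± 0.31, adjusted p = 4.29e-06). Oas3, an enzyme related to Oas2, had 15.8, 9.56, 32.8 and 14.9 CPM in MI, against 1.57, 4.44, 6.51 and 7.07 CPM in sham (log2 fold change 1.82 ± 0.40, adjusted p = 0.000941). The groups were apart for both genes, in opposite directions. Isg15 had 4.57, 3.75, 9.05 and 3.89 CPM in MI, against 0.559, 1.53, 2.97 and 2.15 CPM in sham (log2 fold change 1.38 ± 0.31, adjusted p = 0.00130).

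Dhx58 had 24.2, 22.6, 35.3 and 21.1 CPM in P56 MI leukocytes, against 6.65, 11.9, 16 and 20.2 CPM in P56 sham leukocytes (log2 fold change 0.97 ± 0.25, adjusted p = 0.00371). Irf7 had 33.1, 24.3, 81.7 and 35.9 CPM in MI, against 7.88, 12.4, 22.4 and 26.1 CPM in sham (log2 fold change 1.31 ± 0.34, adjusted p = 0.00361), and Ifi35 had 26.0, 21.8, 29.4 and 27.7 CPM in MI, against 14.9, 19.5, 25.5 and 23.6 CPM in sham (log2 fold change 0.34 ± 0.14, adjusted p = 0.0466). Isg15 and Dhx58 separated the groups, and Irf7 and Ifi35 did not. Without P56 MI replicate 3 the counts were 7 higher and 5 lower, the log2 fold change of Isg15 was 1.11 (adjusted p = 0.00518) and that of Ifit1 was 0.45 (adjusted p = 0.144, past the threshold with all libraries). Without P56 sham replicate 4 as well, 9 were higher and 5 lower, and 10 of the 15 calls were kept whichever single library was left out.

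Cell type markers in the adult leukocyte libraries moved with infarction too. Cardiomyocyte markers summed to 1418 to 4759.6 CPM in P56 MI and 20485 to 53811 CPM in P56 sham, endothelial markers to 130.3 to 216 CPM in P56 MI and 365 to 536 CPM in P56 sham, all 8 leukocyte markers were higher, and 6 of 8 T and NK cell markers were lower. Monocyte and macrophage markers were higher for 4 and lower for 3 of 8. Neutrophil markers were higher for 5 of 8 (185 to 651 CPM in P56 MI and 28.2 to 82.1 CPM in P56 sham) and plasmacytoid dendritic cell markers for 4 of 5 tested (37.1 to 45.2 CPM in P56 MI and 25.5 to 33.4 CPM in P56 sham). Their part in the result was not tested.

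In adult fibroblasts 4 of 35 members were higher after MI and 6 lower (24.8% and 25.2% of genes; median -0.10 against -0.03), so neither share exceeded that over all genes. Cmpk2, a mitochondrial nucleotide kinase gene that lies beside Rsad2, had 5.85, 9.29, 10.5 and 5.07 CPM in P56 MI fibroblasts, against 15.6, 13.3, 13.6 and 15.5 CPM in P56 sham fibroblasts (log2 fold change -0.93 ± 0.19, adjusted p = 0.000682). Ifi35 had 20.5, 20.6, 19.0 and 19.5 CPM in MI, against 25.9, 25.5, 30.0 and 29.9 CPM in sham (log2 fold change -0.47 ± 0.09, adjusted p = 0.000649). Isg15 went the other way, with 2.63, 2.54, 7.99 and 2.76 CPM in MI, against 1.55, 1.22, 1.38 and 1.93 CPM in sham (log2 fold change 1.01 ± 0.26, adjusted p = 0.00471), and 0.65 without replicate 3 of MI. Ifih1 had 32.3, 41.4, 42.8 and 27.3 CPM in MI, against 46.3, 45.6, 50.4 and 55.7 CPM in sham (log2 fold change -0.47 ± 0.14, adjusted p = 0.00924). All 4 separated the groups. Without P56 MI replicate 3 the counts were 2 higher and 11 lower, and without P56 sham replicate 4 as well they were 3 and 7. Of the 10 calls, 7 were kept whichever single library was left out. All 8 cardiomyocyte markers were lower after MI (78.4 to 309 CPM in P56 MI and 847 to 1566 CPM in P56 sham fibroblasts), and their part in the result was not tested.

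In the adult cardiomyocyte fraction 2 of 37 members were higher after MI and 1 lower (8.66% and 1.03% of genes; median -0.18 against 0.08). Zbp1 had 2.39, 1.05, 3.90 and 1.21 CPM in P56 MI cardiomyocytes, against 0.248, 0.0944, 0.954 and 0.491 CPM in P56 sham cardiomyocytes (log2 fold change 1.43 ± 0.42, adjusted p = 0.0369), and Oas1a had 2.81, 1.93, 3.43 and 1.30 CPM in MI, against 0.372, 0.660, 1.19 and 1.33 CPM in sham (log2 fold change 1.05 ± 0.29, adjusted p = 0.0253). Tgtp2 had 0.248, 0.484, 0.844 and 0.434 CPM in MI, against 1.74, 1.51, 1.67 and 3.72 CPM in sham (log2 fold change -1.37 ± 0.41, adjusted p = 0.0418). Zbp1 and Tgtp2 separated the groups and Oas1a overlapped, all at low levels. No call was kept whichever library was left out. The count was 12 without P56 MI replicate 3 (2 higher, 10 lower), 0 without P56 MI replicate 1, 1 without P56 sham replicate 1, 0 without P56 sham replicate 2 and 1 without P56 sham replicate 4, and 7 (1 higher, 6 lower) without P56 MI replicate 3 and P56 sham replicate 4 together. All 8 leukocyte markers were higher after MI (82.7 to 296 CPM in P56 MI and 14.4 to 62.3 CPM in P56 sham cardiomyocytes), and their part in the result was not tested.

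**Figure D4:**
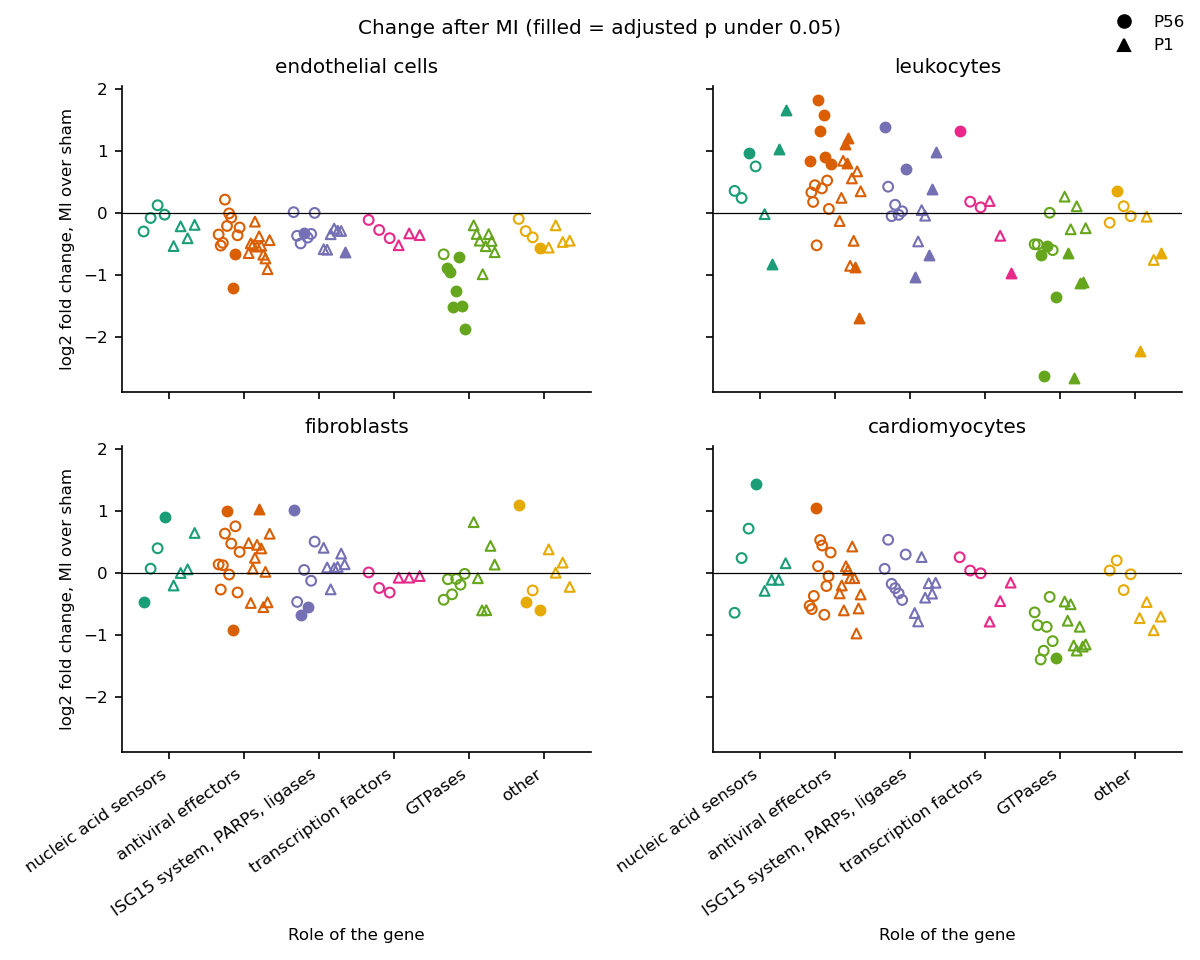
Log2 fold change of MI over sham (y axis) for each tested member, by role (x axis) in each population, with circles for P56 and triangles for P1; filled points passed adjusted p under 0.05. The GTPases hold 7 filled circles below 0 in endothelial cells and 4 in leukocytes, where 6 effectors are filled above 0.

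After infarction at P1 most calls were in leukocytes, as they were over all genes. There 7 of 39 members were higher in MI and 12 lower (22.6% and 22.6% of genes; median -0.13 against -0.01), with GTPases lower for 4 of 8 and higher for 0, effectors higher for 3 and lower for 2 of 13, and sensors higher for 2 and lower for 1 of 4. Of these 19 calls, 14 were kept whichever single library was left out. Iigp1 had 26.3, 8.01, 18.9 and 11.2 CPM in P1 MI leukocytes, against 92.3, 96.8, 106 and 85.8 CPM in P1 sham leukocytes (log2 fold change -2.66 ± 0.31, adjusted p = 6.3e-06). Ifi44 had 1.29, 0.928, 0.836 and 0.849 CPM in MI, against 6.65, 7.45, 7.00 and 4.71 CPM in sham (log2 fold change -2.23 ± 0.33, adjusted p = 4.99e-05). Mx2 had 5.77, 5.14, 7.61 and 6.22 CPM in MI, against 21.8, 23.1, 20.0 and 19.4 CPM in sham (log2 fold change -1.70 ± 0.26, adjusted p = 7.57e-05). All 4 MI values of each gene lay below all 4 sham values.

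Stat2 was lower as well, with 32.2, 26.2, 30.9 and 29.4 CPM in P1 MI leukocytes, against 62.0, 62.9, 53.9 and 54.5 CPM in P1 sham leukocytes (log2 fold change -0.96 ± 0.19, adjusted p = 0.000774). Zbp1 had 23.0, 21.7, 31.0 and 16.4 CPM in MI, against 5.99, 9.46, 5.19 and 7.07 CPM in sham (log2 fold change 1.66 ± 0.33, adjusted p = 0.000688), and Trim30a had 84.7, 96.0, 104 and 87.7 CPM in MI, against 50.5, 49.8, 42.9 and 44.5 CPM in sham (log2 fold change 0.98 ± 0.19, adjusted p = 0.000555). The last 2 were higher in every MI library than in any sham library. Endothelial markers summed to 412 to 733 CPM in P1 MI and 3479 to 4085 CPM in P1 sham leukocytes (8 of 8 lower), all 8 cardiomyocyte markers were lower and all 8 leukocyte markers higher. Monocyte and macrophage markers were higher for 7 of 8 (7932 to 9270 CPM in P1 MI and 2346 to 3023 CPM in P1 sham). The part of these markers in the result was not tested.

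The other newborn populations gave few calls. In P1 fibroblasts 1 of 35 members was higher and 0 lower (1.99% and 0.375% of genes; median 0.07 against 0.01). It was Oasl2, an oligoadenylate synthetase-like protein, with 13.1, 11.3, 9.21 and 13.4 CPM in P1 MI fibroblasts, against 4.93, 5.03, 4.99 and 7.22 CPM in P1 sham fibroblasts (log2 fold change 1.02 ± 0.20, adjusted p = 0.0105). The count was 2 without P1 sham replicate 4, without P1 MI replicate 2, without P56 sham replicate 3 or without P56 MI replicate 2, the last pair entering through the shared spread. In P1 endothelial cells 0 of 37 were higher and 1 lower (0.0891% and 0.127% of genes). It was Trim30a, with 21.6, 17.9, 23.5 and 21.6 CPM in P1 MI endothelial cells, against 33.9, 33.8, 31.7 and 32.2 CPM in P1 sham endothelial cells (log2 fold change -0.63 ± 0.11, adjusted p = 0.0342), and neither gene overlapped between groups. All 37 tested members had a negative log2 fold change there (median -0.46 against 0.01 over all genes) and 20 had an unadjusted p under 0.05. The shares of all genes with a negative change or with such a p were not computed. The endothelial count was 0 without P1 sham replicate 1, 2 or 3 or without P1 MI replicate 1 or 2, and 3 without P56 MI replicate 2. No endothelial member was higher by edgeR or DESeq2, which called 1 and 4 lower.

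In P1 cardiomyocytes limma called 0 of 37 members in either direction (0.285% and 0.0582% of genes), while edgeR called 0 and DESeq2 6, all lower. By limma 14 had an unadjusted p under 0.05, a level whose share over all genes was not computed. The median log2 fold change was -0.46, against -0.03 over all genes, and that of the 8 GTPases was -1.01. Iigp1 had 42.1, 33.2, 30.5 and 40.0 CPM in P1 MI cardiomyocytes, against 57.3, 206, 36.3 and 106 CPM in P1 sham cardiomyocytes (log2 fold change -1.17 ± 0.50, adjusted p = 0.371). The limma count was 1 without P1 sham replicate 3 and 2 without P56 MI replicate 3.

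**Figure D5:**
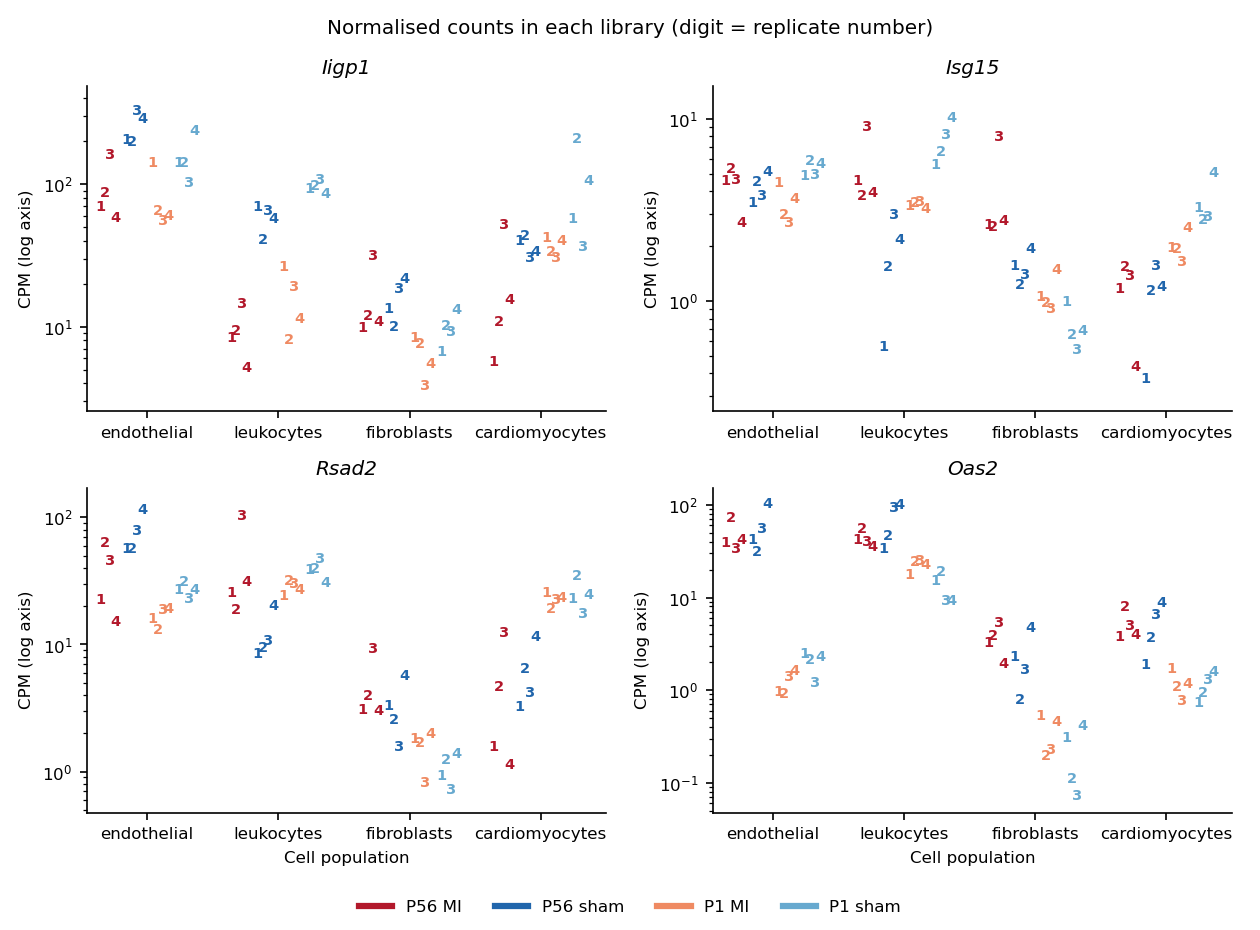
CPM on a log axis (y) in each library for Iigp1, Isg15, Rsad2 and Oas2, by population (x) and group (colour); digits are replicate numbers. Iigp1 lies between 5.15 and 14.4 CPM in P56 MI leukocytes, below 40.5 to 68.7 in P56 sham, and Oas2 lies between 30.8 and 103 CPM in P56 sham endothelial cells, above 1.20 to 2.46 in P1 sham.

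Whether the change after MI differed by age was tested as the MI effect at P56 minus that at P1. In leukocytes the difference was positive for 11 of 39 members and negative for 1 (23.7% and 21.5% of genes; median 0.41 against 0.02). Isg15 had a log2 fold change after MI of 1.38 ± 0.31 at P56 and -1.04 ± 0.31 at P1, a difference of 2.41 ± 0.44 (adjusted p = 0.000488). For Ifi44 the changes were -0.16 ± 0.33 at P56 and -2.23 ± 0.33 at P1, a difference of 2.07 ± 0.46 (adjusted p = 0.00209). Mx2 changed by 0.06 ± 0.26 at P56 and -1.70 ± 0.26 at P1, a difference of 1.76 ± 0.37 (adjusted p = 0.00132). In all 3 the newborn change was downward and the adult one was upward or near 0.

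Among the other leading genes of leukocytes, the difference was 1.05 ± 0.27 (adjusted p = 0.00560) for Stat2, 1.06 ± 0.28 (adjusted p = 0.00587) for Ddx58 and 1.12 ± 0.31 (adjusted p = 0.00766) for Irgm1. The 1 negative difference was that of Oas2, -1.33 ± 0.43 (adjusted p = 0.0203), with MI changes of -0.53 ± 0.31 at P56 and 0.80 ± 0.31 at P1. Iigp1 fell after MI at both ages and its difference was 0.03 ± 0.44 (adjusted p = 0.956), which did not pass the test. Without P56 MI replicate 3 and P56 sham replicate 4, 14 differences were positive and 0 negative. Marker genes differed as well, with positive differences for 7 of 8 endothelial and 5 of 8 neutrophil markers. Negative differences were found for 6 of 8 cardiomyocyte and 6 of 8 T and NK cell markers. Monocyte and macrophage markers were positive for 1 and negative for 5 of 8. The part of these markers in the result was not tested.

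In fibroblasts 0 of 35 differences were positive and 4 negative (16.2% and 15.5% of genes). They were -1.25 ± 0.30 (adjusted p = 0.00521) for Gbp2, -1.05 ± 0.28 (adjusted p = 0.00985) for Oasl2, -0.47 ± 0.13 (adjusted p = 0.0140) for Ifi35 and -0.65 ± 0.22 (adjusted p = 0.0340) for Parp14. No difference was positive by edgeR or DESeq2, which each called 4 negative, while 7 were negative without P56 MI replicate 3 and 2 without P56 MI replicate 3 and P56 sham replicate 4 together. All 8 cardiomyocyte markers and 4 of 8 endothelial markers also had a negative difference in fibroblasts, and their part in the result was not tested. In endothelial cells 1 of 37 was positive and 0 negative (3.39% and 2.02% of genes): Trim30a, with a difference of 0.63 ± 0.16 (adjusted p = 0.0268). That call was lost without P1 sham replicate 1, without P1 sham replicate 2, without P56 sham replicate 3 or without P56 MI replicate 3, and 1 difference was positive without P56 MI replicate 3 and P56 sham replicate 4 together. In cardiomyocytes 6 of 37 had an unadjusted p under 0.05 by limma, a level whose share over all genes was not computed. After adjustment limma called 0 (1.69% and 0.0582% of genes), while edgeR called 0 and DESeq2 1. This count was 3 without P56 MI replicate 3 (2 positive, 1 negative), 2 without P56 MI replicate 3 and P56 sham replicate 4 together (both positive) and 1 without any of P1 sham replicate 2, P56 sham replicate 4, P56 MI replicate 2 and P56 MI replicate 4. The median difference over all genes there was 0.14, and 0.02 after median-of-ratios scaling, so member values are to be read against that shift.

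Of 35 other genes of the interferon pathway, 30 were in the table and 26 to 29 were tested by population. Ifng, the gene of interferon gamma, did not exceed 0.943 CPM in the leukocyte libraries and was listed at 0 in all 4 libraries of 8 groups, all of them outside leukocytes. In P56 MI leukocytes it had 0, 0.0431, 0 and 0.0787 CPM, against 0.503, 0.472, 0.399 and 0.172 CPM in P56 sham leukocytes. The ligands Ifnb1, Ifna2, Ifna4 and Ifnl2 and the inhibitor gene Trex1 were not analysed here.

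With age, the pathway genes were higher for 14 and lower for 9 of 26 in fibroblasts, 11 and 13 of 28 in endothelial cells, 8 and 10 of 29 in leukocytes, and 4 and 15 of 28 in cardiomyocytes. Over all genes the shares higher and lower were 34.8% and 32.2% in fibroblasts and 33.6% and 29.3% in endothelial cells. They were 32.5% and 34.5% in leukocytes and 33.3% and 37.0% in cardiomyocytes. Socs3, a feedback inhibitor of JAK kinases, was lower at P56 in all 4 populations: it averaged 22 ± 3.16 CPM in P56 sham and 460.2 ± 57.1 CPM in P1 sham endothelial cells (log2 fold change -4.36 ± 0.25, adjusted p = 6.2e-10). In fibroblasts it averaged 25.4 ± 5.97 CPM in P56 sham and 558 ± 111 CPM in P1 sham (SD, n = 4 each). The log2 fold changes were -4.43 ± 0.27 in fibroblasts, -3.72 ± 0.25 in leukocytes and -4.88 ± 0.37 in cardiomyocytes. Irf1, a transcription factor induced by interferon gamma, was lower too, by a log2 fold change of -1.15 ± 0.13 in endothelial cells, -2.76 ± 0.20 in leukocytes and -2.15 ± 0.22 in cardiomyocytes. The receptor gene Ifngr1 was higher in adult fibroblasts, at 265 ± 33.6 CPM in P56 sham and 59.7 ± 5.11 CPM in P1 sham (log2 fold change 2.14 ± 0.11, adjusted p = 9.41e-11). Mavs, the adaptor downstream of Ifih1 and Ddx58, was higher in adult cardiomyocytes (log2 fold change 2.56 ± 0.19, adjusted p = 1.27e-09), and the DNA sensor Mb21d1 (cGAS) was lower in adult fibroblasts (log2 fold change -1.53 ± 0.16, adjusted p = 4.06e-07).

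After MI at P56 the pathway genes were higher for 13 and lower for 2 of 29 in leukocytes, 6 and 3 of 28 in endothelial cells, 6 and 8 of 26 in fibroblasts, and 4 and 0 of 28 in cardiomyocytes. Over all genes the shares higher and lower were 30.7% and 28.8% in leukocytes and 12.5% and 7.88% in endothelial cells. They were 24.8% and 25.2% in fibroblasts and 8.66% and 1.03% in cardiomyocytes. Socs3 was higher in all 4 populations, by log2 fold changes of 1.75 ± 0.25 in endothelial cells, 2.92 ± 0.25 in leukocytes, 2.27 ± 0.27 in fibroblasts and 2.46 ± 0.37 in cardiomyocytes. Ikbke, a kinase that activates interferon regulatory factors, averaged 60.4 ± 14.3 CPM in P56 MI and 7.10 ± 1.59 CPM in P56 sham leukocytes (log2 fold change 2.99 ± 0.26, adjusted p = 2.78e-07). Tmem173, which encodes STING, was higher after MI in fibroblasts (log2 fold change 1.59 ± 0.15, adjusted p = 3.58e-07) and endothelial cells (log2 fold change 0.76 ± 0.14, adjusted p = 0.00126). Ifngr1 was lower in fibroblasts (log2 fold change -0.87 ± 0.11, adjusted p = 8.91e-06).

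After MI at P1 the pathway genes were higher for 12 and lower for 5 of 29 in leukocytes (22.6% and 22.6% of all genes). The test called 0 in endothelial cells, fibroblasts and cardiomyocytes, where 3, 3 and 5 had an unadjusted p under 0.05 (limma). The shares of all genes called higher and lower there were 0.0891% and 0.127%, 1.99% and 0.375%, and 0.285% and 0.0582%. Shares at the unadjusted level were not computed. In leukocytes Irf5, a regulatory factor of myeloid cells, was higher (log2 fold change 1.37 ± 0.17, adjusted p = 7.87e-06), as was Tlr7, the endosomal sensor of single-stranded RNA (log2 fold change 1.34 ± 0.18, adjusted p = 2.08e-05), while Jak2, a kinase of the interferon gamma receptor, was lower (log2 fold change -1.28 ± 0.15, adjusted p = 5.55e-06). The MI effect on Socs3 was larger at P56 than at P1 in all 4 populations, by a log2 difference of 1.67 ± 0.36 in endothelial cells, 3.51 ± 0.35 in leukocytes, 2.55 ± 0.38 in fibroblasts and 2.91 ± 0.53 in cardiomyocytes.

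Read sharing limits a few of these genes. Of the 50-base windows in their GENCODE M21 transcripts, 91.4% in Tgtp1 and 90.6% in Tgtp2 also occur in the other gene, 57.6% in Oas1a occur in Oas1g and 51.2% in Ifit3 in Ifit3b, and 8 of the 39 members share over 10%, so their levels are uncertain as single genes. Counts of GTPases above take Tgtp1 and Tgtp2 as separate members, although their signals may not be separate. Igtp and Irgm2 overlap on the same strand by 7974 bases. Parp9 and Dtx3l overlap by 682 bases on opposite strands, and since no source used here gives the strand setting, reads from that stretch cannot be told apart.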

How the data were processed

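Normalised read counts, which the authors call CPM, were taken as deposited (unit: signal); per the file headers they cover 20637 genes and 64 libraries. Per the submitters' processing notes, Trimmomatic, STAR, HTSeq and edgeR were used; versions, scaling and the strand setting are not given in the sources used here. Columns sum to 776590 to 2.63e+06 and not to 1e6, but 100.0% of values were whole multiples of 1 read within 0.01, so reads were recovered for count tests. The authors' deposited gene length gave levels per kilobase.

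Computed here: limma 3.58.1 (R 4.3.3, trend) on log2(CPM + 0.5) over the 16 libraries of a population, for genes at 1 CPM or more in 4 libraries, with Benjamini-Hochberg adjustment over all genes; enrichment used the 32 sham libraries. Errors of log2 fold changes, differences included, are standard errors, and fold changes on this scale understate the change of low genes. Scripts were tested on simulated data. The members and gene lists were chosen with earlier results of these data known. Values in every library are given for the called member of each role with the smallest adjusted p per comparison; others named, among them the genes of the plot by library, were chosen after their values were seen. Alternatives were other pseudocounts, filters and scaling, the count models of edgeR 4.0.16 and of DESeq2 1.42.0, a replicate block, fits on the groups compared, and each library left out.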

Additional observations from a re-analysis of the deposited data

Results flagged for a closer look

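Single libraries stood apart from the other 3 of their group in 6 of 108 groups of values checked, where chance alone flags about 1 in 20. The mean log2(CPM + 0.5) of the 39 genes in P56 MI leukocytes was 5.06 in replicate 3 and 4.13 to 4.19 in the others. Isg15 in the same replicate had 9.05 CPM in P56 MI leukocytes, where the others had 3.75 to 4.57, and 7.99 CPM in P56 MI fibroblasts, where the others had 2.54 to 2.76. Oasl2 had 7.22 CPM in P1 sham fibroblast replicate 4 (others 4.93 to 5.03), Tgtp2 3.72 CPM in P56 sham cardiomyocyte replicate 4 (others 1.51 to 1.74), and Ifit1 13.4 CPM in P56 sham fibroblast replicate 4 (others 7.43 to 8.46).

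The change after MI differed between P56 and P1 for 17 combinations of member and population by the limma interaction test. Over all genes, the shares with a positive and a negative difference were 23.7% and 21.5% in leukocytes and 16.2% and 15.5% in fibroblasts. They were 3.39% and 2.02% in endothelial cells and 1.69% and 0.0582% in cardiomyocytes. In leukocytes the log2 difference, P56 minus P1, was 2.41 for Isg15, 2.18 for Oasl1, 2.07 for Ifi44, 2.03 for Rsad2, 1.77 for Cmpk2, 1.76 for Mx2, 1.12 for Irgm1, 1.06 for Ddx58, 1.05 for Stat2, 0.64 for Parp14, 0.55 for Irf9 and -1.33 for Oas2. In fibroblasts it was -1.25 for Gbp2, -1.05 for Oasl2, -0.65 for Parp14 and -0.47 for Ifi35, and in endothelial cells 0.63 for Trim30a.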

How the results depend on the processing

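No called fold change reversed its sign under any alternative run. The balance of calls did turn for MI at P56 in cardiomyocytes, where 2 members were higher and 1 lower: it became 2 higher and 10 lower without P56 MI replicate 3, and 1 higher and 6 lower without the high P56 libraries. Over 24 counts of called or enriched members, median-of-ratios scaling and a pseudocount of 0.1 left 24 within 1.5 times of the values in the report, and of 512 counts with 1 library left out 479 stayed within it. Of 3008 fold changes with 1 library left out 2768 stayed past the threshold and 240 did not.

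For MI at P1 in cardiomyocytes, where 0 members were called, a pseudocount of 1 gave 1, no filter 1, DESeq2 6, the fit on the groups compared 5, removal of the 18S-rich libraries 1, and removal of the P56 MI replicates 3 and P56 sham replicates 4 gave 2. For MI at P1 in fibroblasts (1 called) DESeq2 and removal of the 18S-rich libraries gave 2 each. For MI at P1 in endothelial cells (1 called) DESeq2 gave 4, the fit on the groups compared 5 and the replicate block 0. For MI at P56 in cardiomyocytes (3 called) a pseudocount of 1 gave 1, a filter of 5 CPM 0, edgeR 1, the replicate block 0, the fit on the groups compared 1, and removal of the high P56 libraries 7; median-of-ratios scaling gave 1 higher and 1 lower. For MI at P56 in endothelial cells (11 called) the fit on the groups compared gave 7. For age in cardiomyocytes (26 called) removal of the 18S-rich libraries gave 16. For the difference of the MI changes, DESeq2 gave 1 and removal of the high P56 libraries 2 in cardiomyocytes (0 called), and that removal gave 2 in fibroblasts (4 called); the fit on the groups compared holds all 16 libraries there and gives no other value. Any positive difference in place of 2-fold gave 2 enriched members in P1 endothelial cells, where the 2-fold rule gave 0, and 27 in P56 endothelial cells, where it gave 17. Both removals of library sets were chosen after seeing the data, and the cause of these shifts was not tested.

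With 1 library left out, the counts ran from 0 to 2 for MI at P1 in cardiomyocytes, 1 to 2 in fibroblasts and 0 to 3 in endothelial cells. For MI at P56 they ran from 0 to 12 in cardiomyocytes and 5 to 14 in endothelial cells. For the difference they ran from 0 to 3 in cardiomyocytes, 3 to 7 in fibroblasts and 0 to 1 in endothelial cells, and for enrichment in P1 endothelial cells from 0 to 1.

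Equal replicate numbers did not pair MI with sham libraries: the deviations of same-numbered libraries from their group means had a median correlation of -0.07 (over 0.1 in 4 of 32 pairs) for MI and sham, and of -0.09 (2 of 16) for P56 and P1 sham. Between 2 populations of 1 condition the median was 0.22 (69 of 96 pairs over 0.1), against -0.08 for different numbers, a hint from the data and not from the design. The replicate block changed 2 of 24 counts by over 1.5 times, both given above. At a depth where 3 reads equal up to 0.409 CPM, levels below that are not resolved.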
